A study of Mus musculus with 17 samples.

Results

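Matrix proteases and their inhibitors were followed in 17 single cells from mouse back skin. The 47 genes described here are all rows of the expression table whose symbol begins with Mmp, Adam, Adamts, Adamtsl, Timp, Cts, Serpin or Cst followed by a member name, out of 8446 rows. Serpinh1, Serping1 and 1 Adamts gene were left out. They fall into 7 families, with 7 matrix metalloproteinases (Mmp), 8 Adam genes, 8 Adamts and Adamtsl genes, 10 cathepsins (Cts), 3 tissue inhibitors of metalloproteinases (Timp), 9 serpins and 2 cystatins (Cst).

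All cells were of 1 kind. They were Tomato-positive cells sorted and picked singly from digested back skin of adult C57BL/6 mice of the genotype Prrx1-CreERT;Tomato, which had received 2 mg of tamoxifen per 30 g mouse once a day for 3 days. In these mice a tamoxifen-dependent Cre recombinase under Prrx1 control switches on the red reporter, so that a cell is marked by Prrx1 activity at the time of tamoxifen. The number of mice and the animal behind each cell are not given, and there is no untreated or unlabelled group. The 17 cells were therefore treated as 1 sample, and levels, spreads and detection are given with no test between conditions.

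Metalloproteinases of the Mmp family cut collagens, proteoglycans and other matrix proteins, and are held in check by the Timp proteins. Adam proteins are mostly membrane-bound and shed the outer parts of other surface proteins, whereas Adamts proteins are secreted and several of them cut aggrecan and versican. Cathepsins work mainly inside lysosomes, with some of them also released into the matrix, and the cysteine cathepsins are inhibited by cystatins. Serpins are a family of suicide inhibitors of serine proteases, although some members inhibit nothing, and Adamtsl proteins resemble Adamts proteins without the protease domain. The set therefore holds lysosomal, intracellular and inactive proteins beside true matrix proteases.

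Values are the deposited ones, read as log2 of FPKM plus 1, where FPKM is a fragment count scaled for transcript length and library size. That reading rests on the values themselves, since no label names the base of the logarithm or the constant added. A gene is called detected in a cell at FPKM 1, a value of 1, and a stricter level of FPKM 10, a value of 3.46, is given beside it. The cells had all been brought to the same distribution of values, so summed FPKM lay between 592939 and 592955 in every cell and read depth is unknown. Every cell likewise had 4369 of the 8446 rows at FPKM 1. Detection at that level therefore marks the rank of a gene within its cell, not an absolute amount. Low values resembled each other within runs of consecutively numbered cells. Over 224 genes that stayed under 2.5 in all cells, the mean Spearman correlation between cells was 0.28 within the runs 1 to 5, 6 to 14 and 15 to 17, against 0.098 across them, runs that were defined on these same low values. Cell 16 was the least like the others, with a median Spearman correlation of 0.416 to them, and the median over cells was 0.468. Each cell had 8 to 10 of the 10 fibroblast markers at FPKM 1 and 6 to 10 at FPKM 10. Of 6 measured pericyte and smooth muscle markers cells had 0 to 5 at FPKM 1 and 0 to 1 at FPKM 10. Of 7 endothelial markers 3 were measured, and cells had 0 to 2 and 0 to 1 of them at these levels. Tek was at FPKM 10 in 5 cells, Plvap in 3 and Esam in 1. Of 2 measured keratinocyte markers cells had 0 to 1 at either level. At FPKM 10 cell 16 had all 3 measured adipocyte markers, and cell 3 had both measured leukocyte markers. The adipocyte markers were not confined to cell 16, with Fabp4 at FPKM 10 in 10 cells, Cfd in 5 and Car3 in 4.

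Many members were detected in every cell. Of the 47 members 19 were detected in all 17 cells, a share of 40.4%, where 13% of all rows were. At FPKM 10 this held for 14 members, or 29.8%, where 5.65% of all rows were. For a single gene found in 17 of 17 cells the exact 95% interval was 80.5% to 100% of cells. It takes the cells as independent draws, which cannot be checked because the animals are not given, and it does not apply to the share of members. Members detected in 9 or more cells numbered 34, against 46.9% of all rows, or 26 at FPKM 10, against 26.6% of all rows. Those in 3 or fewer numbered 6, against 18.8% of all rows. No member was missing from every cell, and only 77 of the 8446 rows were. Genes without a row cannot be counted. The median of the members' mean values was 3.95, and over all rows it was 1.89. These shares describe the members, and the difference from other rows was not tested.

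The families differed in breadth. The 2 cystatins and 2 of 3 Timp genes were detected in every cell at either level. Of 10 cathepsins 6 were detected in all cells and 5 of them at FPKM 10, and of 7 Mmp genes 4 were, 3 of them at FPKM 10. Of 9 serpins 4 were detected in all cells but 2 at FPKM 10. The Adamts and Adamtsl family had 1 such gene of 8 and the Adam family none of 8. The first share, 12.5%, is close to the 13% of all rows detected in all cells. The families are small, and their differences were not tested. The shares cover only family genes with a row, and some, such as Ctss, have none. Of the 47 members 13 share exon sequence with another annotated gene, 12 of them with a gene of the other strand. Besides Timp3 and Serpinb6a, these include Ctsl, Ctsb, Ctsa, Adam15, Adam17, Mmp11 and Mmp19, whose values may hold reads of both genes. Each cell held 31 to 38 members, with a median of 34, and 24 to 33 at FPKM 10, with the highest number at the stricter level in cell 2.

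**Figure D1:**
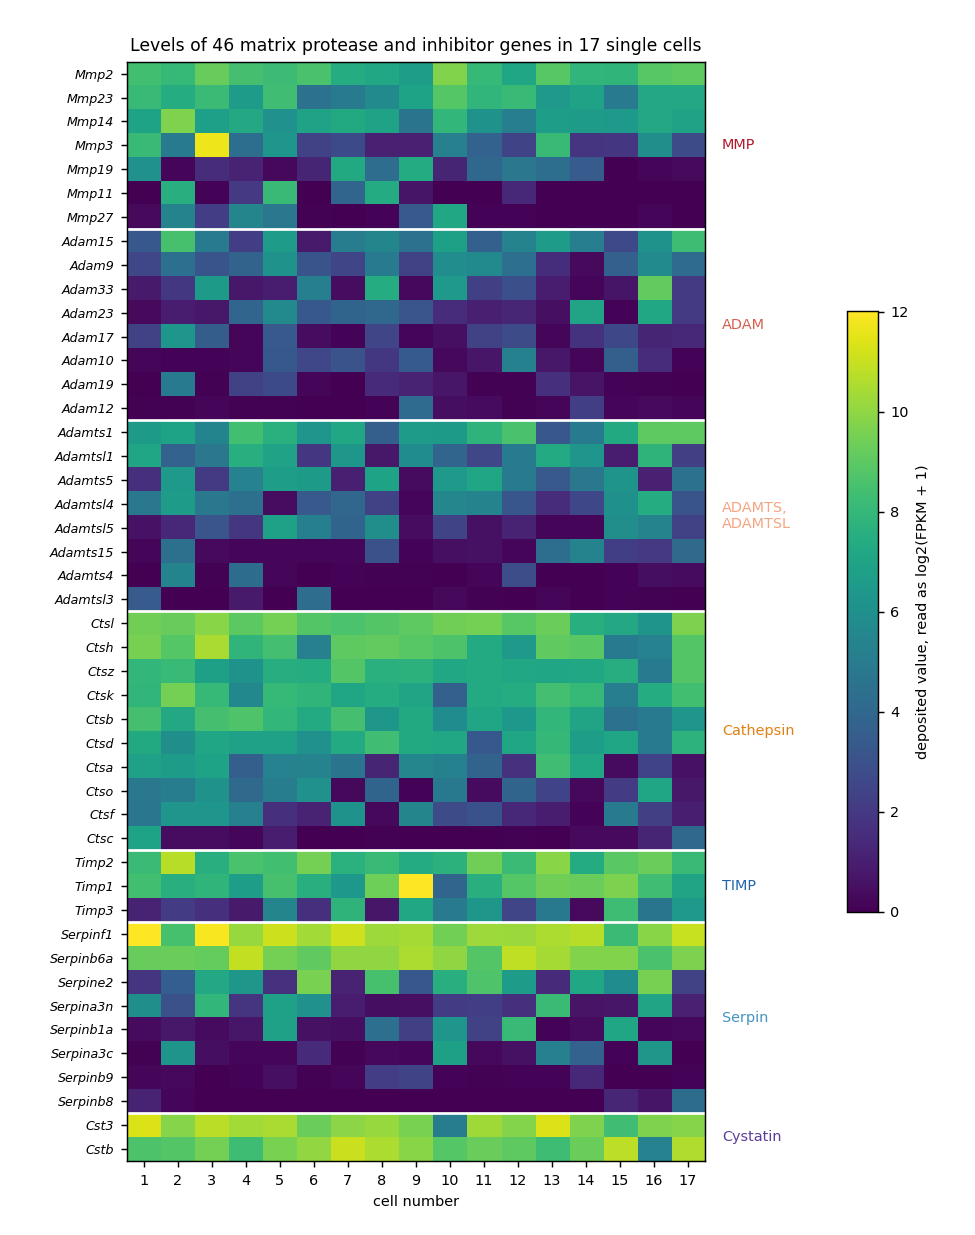
Deposited values of 46 of the 47 genes (rows, ordered by mean within family) in the 17 cells (columns), coloured from 0 to 12.02 as log2(FPKM + 1). Serpinf1, Serpinb6a, Cst3, Cstb, Ctsl, Timp2 and Mmp2 are bright in nearly every column, while most Adam genes, Mmp11, Mmp27 and the lower serpins are bright in a few cells and dark in the rest.

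Among the metalloproteinases Mmp2, gelatinase A, had the highest level. Its value ran from 6.76 in cell 9 through a median of 8.21 to 9.73 in cell 10, with a mean of 8.22 (SD 0.80, n = 17 cells). The spread was narrow and no cell was below FPKM 10. Mmp14, the membrane-type protease that activates pro-Mmp2 together with Timp2, ran from 4.64 in cell 9 through 6.93 to 9.67 in cell 2 (mean 6.81, SD 1.09). Cell 2 stood well above the other cells for this gene, the next being 7.98 in cell 10. Mmp23, a membrane-anchored protease, ran from 4.50 in cell 6 through 7.24 to 8.86 in cell 10 (mean 6.98, SD 1.31). These 3 genes were at FPKM 10 in all 17 cells.

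Mmp3, stromelysin-1, behaved differently from cell to cell. This secreted protease cuts proteoglycans and fibronectin and activates other metalloproteinases. Its value ran from 1.08 in cell 8 through a median of 3.78 to 11.69 in cell 3 (mean 4.39, SD 2.93). All 17 cells counted as detected at FPKM 1, but 9 reached FPKM 10. In cell 3 Mmp3 alone made up 76.6% of the summed Mmp level, against a median of 2.02% over cells, and Mmp genes as a whole took 0.727% of all FPKM there, against a median of 0.113%.

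The remaining 3 Mmp genes were on in some cells. Mmp19, a secreted metalloproteinase, was detected in 12 cells and in 7 at FPKM 10, with 7.39 in cell 9 and 7.28 in cell 7 as its highest values. Mmp11, stromelysin-3, which is known from stroma undergoing remodelling, was detected in 6 cells and in 4 at FPKM 10. It reached 8.12 in cell 5, 7.53 in cell 2 and 7.40 in cell 8, while its median was at about 0. Mmp27 was likewise detected in 6 cells and in 4 at FPKM 10, with 7.15 in cell 10 and 5.45 in cell 4. The cells that were high for Mmp11 and for Mmp27 overlapped in cells 2 and 5.

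The Adam genes had the lowest median of means of the 7 families, 2.31, which compares with 1.89 over all rows. Of the 8 genes 5 were detected in 9 or more cells, as were 46.9% of all rows. Adam15 and Adam9, both widely expressed membrane proteases, were detected in 16 cells each. Adam15 ran from 0.87 in cell 6 through 5.13 to 8.50 in cell 2 (mean 5.07, SD 2.07), and Adam9 from 0.30 in cell 14 through 3.84 to 6.13 in cell 5 (mean 3.79, SD 1.64). The main sheddases Adam17, which releases tumour necrosis factor, and Adam10, which cuts Notch receptors, were at FPKM 10 in 2 cells each. Adam17 reached 6.32 in cell 2 (mean 1.87, SD 1.64) and Adam10 reached 5.29 in cell 12 (mean 1.61, SD 1.64).

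Adam33 and Adam23 varied most among the Adam genes detected in 4 to 13 cells. Adam33, a mesenchymal member linked to airway disease in humans, was at FPKM 10 in 5 cells, with 9.12 in cell 16 and 7.43 in cell 8 (mean 2.88, SD 2.90). Adam23, which lacks protease activity and binds integrins, was at FPKM 10 in 6 cells, with 7.17 in cell 16 and 7.01 in cell 14 (mean 2.75, SD 2.28). Both genes were thus highest in cell 16, the cell least like the others. Without it the mean of Adam33 was 2.49 and that of Adam23 was 2.48. Adam19 and Adam12, the meltrins, were at FPKM 10 in 1 cell each, at 4.94 in cell 2 and 4.21 in cell 9.

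Adamts1 led the secreted Adamts family. The encoded protease cuts versican and aggrecan. Its value ran from 3.27 in cell 13 through 6.98 to 9.06 in cell 17 (mean 6.77, SD 1.70), and 16 cells reached FPKM 10. Adamts5, the main aggrecanase of mouse cartilage, was detected in 16 cells and in 11 at FPKM 10, from 0.34 in cell 9 through 4.93 to 7.09 in cell 11 (mean 4.45, SD 2.38). Adamts1 and Adamts5 lie close together on chromosome 16, Adamts1 from 85793827 to 85803113 and Adamts5 from 85856173 to 85901828 in GRCm38, both on the minus strand. Adamts15 was detected in 7 cells and Adamts4 in 3, with highest values of 5.38 in cell 14 and 5.44 in cell 2.

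Of the protease-like Adamtsl genes, Adamtsl1 and Adamtsl4 were detected in 15 cells each. Adamtsl1 had a mean of 4.77 (SD 2.40) and was at FPKM 10 in 12 cells, and Adamtsl4, which binds fibrillin microfibrils, had a mean of 3.87 (SD 2.07) and was at FPKM 10 in 9. Adamtsl5 was detected in 12 cells and reached 6.87 in cell 5, and Adamtsl3 was detected in 2 cells. The highest Adamtsl1 value, 7.84, and the highest Adamtsl4 value, 7.45, were again in cell 16.

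Cathepsins were high and broad. Ctsl, cathepsin L, a lysosomal cysteine endopeptidase, ran from 6.20 in cell 16 through 9.01 to 9.89 in cell 3 (mean 8.83, SD 0.97). Ctsh, an aminopeptidase, ran from 4.92 in cell 15 through 8.81 to 10.47 in cell 3 (mean 8.05, SD 1.63), with cells 6, 15 and 16 near 5 and the others above 6. Ctsz, a carboxypeptidase, ran from 5.02 in cell 16 through 7.46 to 8.81 in cell 7 (mean 7.38, SD 0.89). Ctsk, cathepsin K, the cysteine protease best known for cutting fibrillar collagen in bone, ran from 3.68 in cell 10 through 7.46 to 9.52 in cell 2 (mean 7.33, SD 1.38). These genes were at FPKM 10 in all cells.

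Ctsb, another lysosomal cysteine protease, was at FPKM 10 in 17 cells (mean 7.08, SD 1.24) and the aspartic protease Ctsd in 16 (mean 6.78, SD 1.19), with Ctsd at 3.32 in cell 11. Ctsa, a serine carboxypeptidase that protects other lysosomal enzymes, was detected in 15 cells, and the cysteine proteases Ctsf and Ctso in 13 and 12. The SDs were 2.48 for Ctsa, 2.26 for Ctsf and 2.34 for Ctso. Ctsc, the dipeptidyl peptidase that activates granule proteases of immune cells, was detected in 3 cells and at FPKM 10 in 2, at 6.98 in cell 1 and 4.02 in cell 17. Csf1r was at 4.69 in cell 1, its highest value, and at 3.56 in cell 17. It also reached FPKM 10 in cell 3 at 3.52 and in cell 12 at 3.77, where Ctsc was at 0.38 and 0.08. Csf1r is a macrophage marker and is 1 of only 2 of the 9 leukocyte markers with a row, the other being Cd14, which was highest in cell 6 and at 5.64 in cell 3, the cell with the highest Mmp3, Ctsl and Ctsh values. The summed level of the 2 genes ran from 0 to 6.40 over cells, and its part in these values was not tested.

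**Figure D2:**
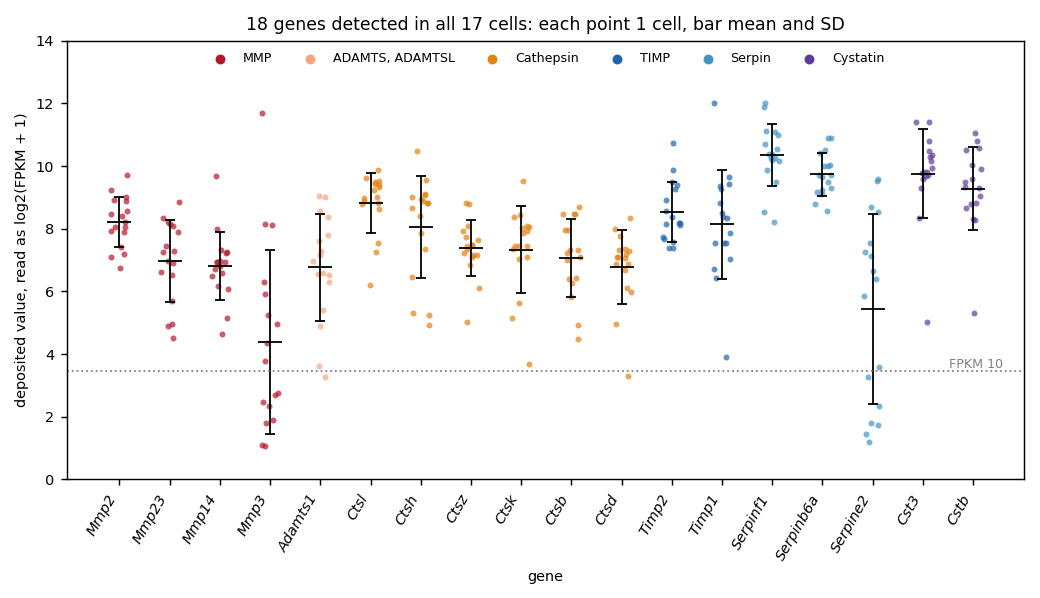
Values of 18 of the 19 genes detected in all 17 cells on the log2(FPKM + 1) axis, each point 1 cell, with the mean and SD over cells and a dotted line at FPKM 10 (3.46). Serpinb6a, Mmp2 and Ctsz are tightly grouped, whereas Mmp3 and Serpine2 spread from near 1 to above 8.

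The metalloproteinase inhibitors Timp2 and Timp1 were high in nearly every cell. Timp2, which inhibits Mmp2 and also serves in its activation, ran from 7.38 in cell 9 through 8.18 to 10.73 in cell 2 (mean 8.53, SD 0.95). Timp1 ran from 3.90 in cell 10 through 8.34 to 12.02 in cell 9 (mean 8.14, SD 1.73). Cell 10 lay far below the second lowest cell, 6.43 in cell 7, and cell 9 far above the second highest, 9.64 in cell 15. Timp1 lies within the gene Syn1 on chromosome X, from 20870166 to 20874735 in GRCm38, but shares no exon with it. Timp3, which binds matrix and also inhibits Adam17 and the aggrecanases, was detected in 14 cells and at FPKM 10 in 9, with 8.29 in cell 15 and 7.80 in cell 7 (mean 3.95, SD 2.71). It lies within Syn3 and shares exon sequence with that gene on the other strand. No label states whether reads were counted by strand, so reads of the 2 genes cannot be told apart there.

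Both cystatins were among the 4 highest members. Cst3, cystatin C, the secreted inhibitor of cysteine cathepsins, ran from 5.03 in cell 10 through 9.83 to 11.40 in cells 1 and 13 (mean 9.76, SD 1.42). Cstb, which acts inside the cell, ran from 5.32 in cell 16 through 9.33 to 11.05 in cell 7 (mean 9.28, SD 1.33). For each gene a single cell was far below the rest. The second lowest Cst3 value was 8.34 in cell 15 and the second lowest Cstb value was 8.27 in cell 13.

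Serpinf1 had the highest mean of the 47 genes. It encodes pigment epithelium-derived factor, a secreted serpin with no known inhibitory activity that restrains blood vessel growth. Its value ran from 8.20 in cell 15 through 10.37 to 12.02 in cell 1 (mean 10.36, SD 0.99). Serpinb6a, an inhibitor that acts inside the cell, had the smallest SD of all 47 genes, 0.68, and ran from 8.56 in cell 16 through 9.73 to 10.90 in cell 4 (mean 9.74). Its exons share bases with Nqo2, Ripk1 and a further gene of the other strand, and it has close relatives in the Serpinb6 cluster, so reads may be split or shared. In the order of means, each of the 8 highest genes differed from its neighbour by less than the SD of either.

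Serpine2 spanned a wide range. It encodes protease nexin 1, an inhibitor of thrombin and of the plasminogen activators, and ran from 1.20 in cell 7 through 6.38 to 9.58 in cell 6 (mean 5.44, SD 3.02), and 11 cells reached FPKM 10. It was listed at FPKM 1 or more in all 17 cells, so the count of cells at that level hides the wide range.

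Serpina3n, a secreted inhibitor of granzyme B and leukocyte elastase, was detected in 12 cells and in 6 at FPKM 10, with 8.17 in cell 13 and 7.98 in cell 3 (mean 3.37, SD 2.90). Serpinb1a, an inhibitor of neutrophil elastase, was at FPKM 10 in 5 cells and reached 8.16 in cell 12 (mean 2.44, SD 2.90). Serpina3c was at FPKM 10 in 5 cells and reached 6.83 in cell 10. Serpinb8 and Serpinb9 were detected in 3 cells each, and Serpinb9, an inhibitor of granzyme B, was not at FPKM 10 in any cell. Serpina3n, Serpina3c, Serpinb1a and Serpinb9 belong to clusters of similar genes, and no label states how reads were divided among the copies.

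The summed levels of the families were small shares of each cell. Together the 47 genes took a median of 1.55% of summed FPKM, from 1.08% in cell 15 to 2.65% in cell 3. Serpins took a median of 0.50%, cystatins 0.315%, cathepsins 0.291%, Timp genes 0.132%, Mmp genes 0.113%, Adamts and Adamtsl genes 0.0454% and Adam genes 0.019%. Inhibitors summed to a median of 0.944% and proteases to 0.499%. The ratio of inhibitors to proteases had a median of 2.08 and was above 1 in 14 of 17 cells. On the FPKM scale it was lowest in cell 10 at 0.765 and highest in cell 9 at 3.85. The kit reads the 3′ ends of transcripts, for which division by length lowers long genes. With values multiplied by exonic length the median ratio was 1.15 and 10 of 17 cells were above 1. That length joins all annotated exons of a gene, and may differ from the length used for FPKM. Without Serpinf1, which has no known inhibitory activity, the median ratio was 1.49 on the FPKM scale, with 13 of 17 cells above 1. That omission was not computed with values multiplied by length. The protease sum also holds the Adamtsl genes and Adam23, which lack protease activity.

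**Figure D3:**
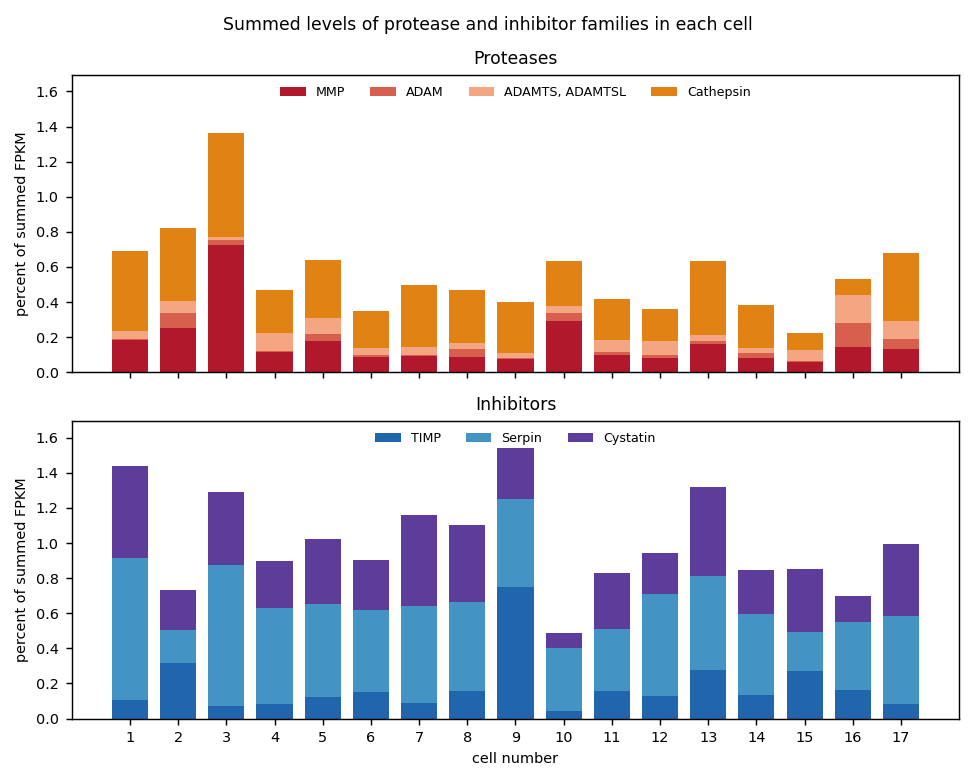
Percent of summed FPKM taken by the 4 protease families (upper panel) and the 3 inhibitor families (lower panel) in each cell, as stacked bars from 0. Cell 3 has the tallest protease bar (1.36%), with a large Mmp part, cell 9 the tallest inhibitor bar (1.54%), with a large Timp part, and cell 10 the shortest inhibitor bar (0.485%).

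Single cells differed in the members for which they were highest or lowest. Every gene is highest in some cell, and a cell was highest for a median of 2 members, with a range of 1 to 7. The same count over all rows was not made. Lowest values are named here only for members detected in all 17 cells. Cell 10 had the lowest Timp1, Cst3 and Ctsk values of the 17 cells and the highest Mmp2, Mmp23, Mmp27 and Serpina3c values. Cell 9 had the highest Timp1, Mmp19, Adam12 and Serpinb9 values and the lowest Mmp2, Mmp14 and Timp2 values. Cell 2 held the highest value for 7 members, Mmp14, Timp2, Ctsk, Adam15, Adam17, Adam19 and Adamts4. Cell 15 was lowest for Serpinf1, Ctsb and Ctsh and highest for Timp3. Cell 16 was lowest for Ctsl, Ctsz, Cstb and Serpinb6a and highest for Adam33, Adam23, Adamtsl1, Adamtsl4 and Ctso. The 3 measured adipocyte markers were at 6.52 (Fabp4), 9.70 (Cfd) and 5.85 (Car3) in cell 16. Fabp4 was highest in cell 2 at 7.62 and Car3 in cell 17 at 6.52. The part of these markers in the profile of cell 16 was not tested. The number of rows at the lowest value was 880 in cell 10, 1247 in cell 9, 987 in cell 2, 1425 in cell 15 and 1467 in cell 16, with a range of 871 to 1766 over all cells. The part of library quality in these profiles was not tested.

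Pairs of a protease and a known partner varied together to different degrees. These correlations are over 17 cells that share 1 processing and normalisation, and they describe these cells only. Ctsk and its inhibitor Cst3 had a Pearson r of 0.74 (Spearman 0.44), which was 0.43 without cell 10. Ctsb and Cst3 had an r of 0.57 (Spearman 0.67), and 0.71 without cell 10. Mmp2 and Mmp14, which act in sequence, had an r of 0.47 (Spearman 0.49). It was 0.30 without cell 9, 0.69 without cell 2 and 0.19 without cells 9 and 10. Mmp14 and Timp2 had an r of 0.48 but a Spearman value of 0.16, and the r was 0.12 without cell 2. The weak values included Mmp2 with Timp2 (0.17) and Mmp3 with Timp1 (-0.22). Adam17 with Timp3 had an r of -0.25, Adam10 with Timp3 0.37, Adamts1 with Timp3 0.33 and Adamts5 with Timp3 -0.17. In cells 6 to 14 alone these were -0.52, 0.10, 0.39 and -0.59. Without cells 7 and 9 the r of Adamts5 with Timp3 was 0.17. Ctsl had an r of 0.16 with Cst3 (Spearman 0.52), and 0.58 without cell 10. The r of Cstb was 0.37 with Ctsl (Spearman -0.10) and 0.13 with Ctsb (Spearman -0.13), and without cell 16 these were -0.36 and -0.38. Serpine2 had one of 0.30 with the tissue-type plasminogen activator gene Plat and of 0.11 with the urokinase gene Plau. In cells 6 to 14 alone these were 0.65 and 0.52, and the r of Mmp2 with Mmp14 was 0.71.

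Of the 561 pairs among the 34 members detected in 9 or more cells, 26 (4.63%) had an r of 0.5 or more, where 2.5% of pairs of all such rows did. The median r was 0.010 among members and 0.00033 among all such rows. The difference was not tested, and the share of pairs at -0.5 or below was not counted. The following pairs were chosen after their values were seen. Cstb and Ctsz had an r of 0.81 (Spearman 0.61), and 0.61 without cell 16. Serpinf1 and Ctsb had an r of 0.66, Serpine2 and Adam33 one of 0.69, and Mmp2 and Mmp3 one of 0.64. The r was 0.62 for Ctsl with Ctsb, 0.63 for Ctsl with Ctsh and 0.62 for Ctsb with Ctsh. Without cells 15 and 16 these were 0.11, 0.20 and 0.26. On the negative side Timp1 had an r of -0.61 with Mmp14 (Spearman -0.74) and of -0.63 with Mmp2 (Spearman -0.52). Without cell 10 the value with Mmp2 was -0.49, and it was -0.22 without cells 9 and 10. Without cell 9 the value with Mmp14 was -0.45.

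Mmp3 and Serpina3n had the highest r of all these pairs, 0.82 (Spearman 0.86). At FPKM 10 both were present in 5 cells, numbers 1, 3, 5, 13 and 16, Mmp3 alone in 4, Serpina3n alone in cell 6, and neither in 7. In cell 3 the values were 11.69 for Mmp3 and 7.98 for Serpina3n, and in cell 13 they were 8.12 and 8.17. Over the 7 cells with neither gene at FPKM 10 the r was still 0.80, and low values resembled each other within runs of cells. The part of shared low values in the pair was not tested. Both genes code for secreted proteins, and neither shares an exon with another gene.

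**Figure D4:**
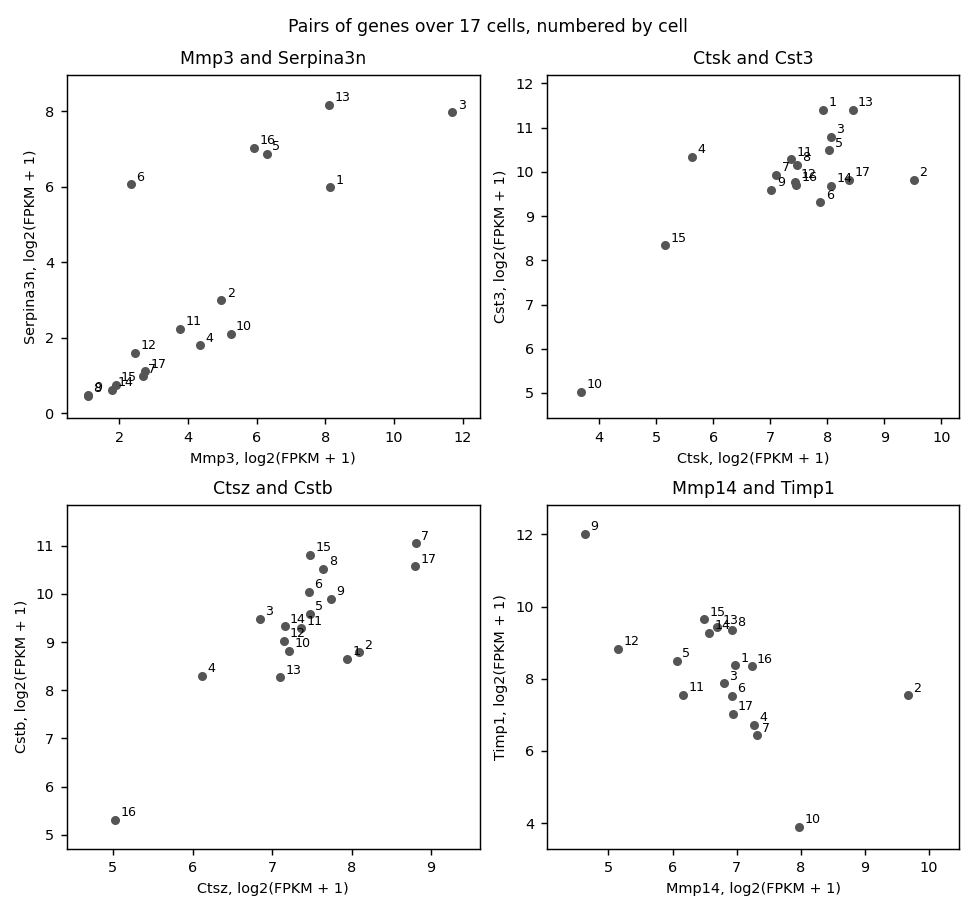
Values of 4 pairs of genes over the 17 cells, each point labelled with its cell number, both axes log2(FPKM + 1) and not starting at 0. Mmp3 and Serpina3n lie along a rising line with cell 6 apart, cell 10 sets the low end of Ctsk with Cst3, cell 16 that of Ctsz with Cstb, and Timp1 is highest in cell 9, where Mmp14 is lowest.

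The 250 bases before the RefSeq start of these genes are shown because they were the pair that varied together most. They are given 5′ to 3′ on the plus strand of GRCm38.p6, from RefSeq, Mmp3 at chr9:7445572-7445821 and Serpina3n at chr12:104406458-104406707. Capitals mark an AP-1 motif, TGANTCA searched on both strands, and a TATA box, TATAAA searched on the gene's strand.

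Mmp3: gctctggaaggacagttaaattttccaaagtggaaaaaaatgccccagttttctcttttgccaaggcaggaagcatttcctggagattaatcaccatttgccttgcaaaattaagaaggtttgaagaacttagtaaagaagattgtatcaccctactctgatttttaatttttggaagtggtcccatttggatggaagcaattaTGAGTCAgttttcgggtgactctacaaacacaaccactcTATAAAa

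Serpina3n: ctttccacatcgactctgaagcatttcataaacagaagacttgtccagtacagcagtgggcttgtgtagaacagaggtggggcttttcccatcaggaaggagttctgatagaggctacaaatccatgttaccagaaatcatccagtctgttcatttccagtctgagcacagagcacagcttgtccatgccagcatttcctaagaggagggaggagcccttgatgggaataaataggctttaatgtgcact

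The Mmp3 stretch holds an AP-1 motif at bases -46 to -40 and the TATA box letters at bases -7 to -2. Bases are counted from the base before the annotated start as -1. Both positions rest on that annotated start, and whether the letters act as a TATA box was not tested. The motifs do not overlap. AP-1 motifs were found in the same window, at any listed start, of 7.82% of 27025 genes and TATA boxes in 8.94%. The Serpina3n stretch holds neither, nor the STAT motif TTCNNNGAA, which was in 8.13% of genes and is absent from the Mmp3 stretch too. Of the 47 members 33 had a promoter in the RefSeq table, and 3 of these held the AP-1 motif, namely Mmp3, Adam19 and Serpinb8. A match of letters does not show that a factor binds there.

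Genes of the same pathways outside the families are given beside the 13% of all rows that were detected in every cell. Of 9 measured plasminogen system genes 4 were detected in all cells, led by S100a10 (mean 12.57, SD 0.66) and Anxa2 (mean 8.09, SD 1.45), whose proteins together bind plasminogen at the cell surface. Plat was detected in 17 cells (mean 5.68, SD 1.68) and Plau in 9 (mean 1.97, SD 1.90), and the urokinase receptor gene Plaur in 11 (mean 3.14, SD 2.59). Of 15 measured other proteases 5 were detected in all cells, among them Prss23 (mean 7.93, SD 1.41) and Htra3 (mean 7.14, SD 1.40), both secreted serine proteases, and Fap (mean 5.00, SD 2.75), the fibroblast activation protein. Of 8 measured other inhibitors and clearance receptors 1 was detected in all cells, a share close to that of all rows, namely Lrp1, which takes up protease and inhibitor complexes (mean 4.55, SD 1.37). Tfpi, an inhibitor of coagulation, was detected in 15 and Reck, a membrane-anchored inhibitor of metalloproteinases, in 10. Of 11 measured lysosomal genes 4 were detected in all cells, among them Lamp2 (mean 7.14, SD 0.63) and Npc2 (mean 6.73, SD 0.90).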

How the data were processed

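RNA of 17 single cells was measured in 1 deposited table. Per the labels, the kit (SMART-Seq v4 DE) captured the 3′ ends of transcripts, Nextera XT made the libraries, and the cells were picked singly, so no doublet caller was run. TopHat2 and Cufflinks were run against GRCm38, per the submitters' processing notes, with versions and settings not stated there. The values deposited by the authors lie on a logarithmic scale and were read as log2 of FPKM plus 1. Sorted values differed by at most 0.0165 between cells above a value of 3, the form that quantile normalisation gives.

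The members and gene lists were chosen with earlier results of these data known. Named genes are the 4 highest members of each family, the 2 most variable among those in 4 to 13 cells, partners in 18 listed pairs, of which 1 has no row for Ctss and is not analysed here, and members with similar copies. A serpin that the totals include is not reported here, nor are its pairs. Further members and pairs were named after their values were seen. Exonic lengths and coordinates come from GENCODE M21 (GRCm38), which matched 8431 of 8446 rows by Ensembl identifier. Intervals are exact (Clopper-Pearson) and cover counting error over cells only. Computation used Python 3.11.15 with scipy 1.17.1, pandas 2.3.3 and numpy 2.4.6, and figures used matplotlib 3.10.9.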

Additional observations from a re-analysis of the deposited data

How the results depend on the processing

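Members detected in every cell numbered 38 of 47 above each cell's lowest value, against 19 at FPKM 1. There the Adam family had 7 such genes and the Adamts and Adamtsl family 6, against 0 and 1. At FPKM 10 the Adamts and Adamtsl family had 0 and serpins 2, also 2 at FPKM 5, against 1 and 4. With values multiplied by exonic length the Adam family had 1 and the Adamts and Adamtsl family 2. The median number of members per cell was 28 at FPKM 5, 25 at FPKM 10 and 45 above the lowest value, against 34. Counting only cells at FPKM 1 or more, the median member averaged 3.64 for Adam genes, 5.03 for Adamts and Adamtsl genes and 6.50 for serpins, against 2.02, 3.03 and 3.06, as leaving out low cells must raise it. Multiplication by length gave 7.63 for cystatins, against 9.52, a summed share of 0.118% for Adamts and Adamtsl genes, against 0.0454%, one of 0.0952% for cystatins, against 0.315%, and a ratio of inhibitors to proteases of 1.15, against 2.08. By mean value times length Serpinb6a led the members, Serpinf1 was second and Cstb 11th. Without its highest member the serpin share was 0.182% and the cystatin share 0.108%, which the omission itself fixes.

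The remaining 92 family values and counts computed under another setting moved by less than the SD over cells, or by no more than 1.5 times for counts. Of the 144 pair correlations under another setting 14 crossed 0.5 in size. Pairs of 2 cathepsins are not among the 144. The r of Ctsk with Cst3 was 0.088 without the 2 cells farthest from the median of Ctsk (10 and 15). It was 0.43 without those farthest from the median of Cst3 (1 and 10). The causes were not tested. Leaving out cell 10, cell 16 or Serpinf1, and all settings for pairs picked by their values, were chosen after the data were seen. No paired analysis was possible because all cells form 1 group. Depth is unknown, so no detection limit can be given, and fewer transcripts and poorer capture cannot be told apart in a cell.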
